A study of Homo sapiens with 4 samples.

Results

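The genes that copy DNA, 52 genes of the replication machinery and of S phase named in a list of symbols, were followed in the human gastric cancer line HGC-27 with and without the peptide GLUP. The members were found by gene symbol among the 62443 genes of the deposited table, all 52 were found once, and 47 had a mean of at least 1 FPKM (fragments scaled by gene length and by mapped fragments) over the 4 libraries and were tested. GLUP is a cyclized and amidated peptide that repeats the TEAD4-binding element of VGLL4, and the study used it to make TEAD4, the transcription factor at the end of the Hippo pathway, condense into repressive droplets. Cells of the GLUP group (2 libraries) received 10 μg/ml of the peptide, with 12 h stated in the text on the transcriptome and 48 h in the protocol. Cells of the control group (2 libraries) received the storage buffer of the peptide per the protocol and no treatment per the labels, and both groups were unmodified HGC-27 cells, so that 1 cell line stands for the tumour. The methods speak of biological replicates without saying what separated them, and p-values measure only the spread between these libraries.

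Replication starts at origins marked by the origin recognition complex (ORC). CDC6 and CDT1 load the MCM2-7 helicase there, geminin (GMNN) blocks CDT1 once S phase has begun, and CDC7, CDC45, GINS and MCM10 turn the loaded helicase into a moving one. DNA polymerases alpha with primase, delta and epsilon then copy the strands behind it. The sliding clamp PCNA, which the RFC complex loads, holds delta and epsilon. Many of these genes are transcribed at the passage from G1 to S under E2F factors.

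The library facts that touch these genes are few. The control libraries were less alike (Pearson r across the 7588 genes tested of 0.933) than the GLUP libraries (0.986), and control replicate 2 stood farthest from the GLUP libraries (0.873 and 0.887, against 0.952 and 0.957 for control replicate 1). The middle gene of all those tested had a log2 fold change of -0.36, so a member at this value stood where the middle gene stood. Of the markers of the labelled cell type, EPCAM and CDH1 were at most 0.12 FPKM, KRT8, KRT18 and KRT19 lay between 0.76 and 2.25 FPKM, and 5 of 7 gastric mucosa markers were listed at 0 in every library. VIM, a mesenchymal filament gene, lay between 293 and 387 FPKM. The other mesenchymal markers were low, with CDH2 at most 0.051 FPKM and FN1 between 0.65 and 3.25 FPKM. The fibroblast markers DCN and COL3A1 lay between 15.3 and 41.4 FPKM, and COL1A1 between 2.97 and 6.9 FPKM. In bulk RNA a smaller share of cells in S phase and less RNA per cell cannot be told apart.

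The replication genes did not move as a block. TK1 and POLD2, which supply thymidine nucleotides by salvage and form part of polymerase delta, were higher in both GLUP libraries than in both controls, as were MCM5, MCM7 and FEN1. POLE4, TYMS, ORC3, GMNN and ORC4 were lower in both. These 10 were the members with a difference over 2-fold and an unadjusted p under 0.05 in limma, and after Benjamini-Hochberg adjustment over all genes none of the 47 was called (lowest limma adjusted p = 0.10). The 5 higher members made up 10.6% of those tested, against 4.67% of all genes, and the 5 lower members also 10.6%, against 14.5% of all genes. The rule of an adjusted p under 0.05 with a fold over 2 called 0.0264% of all genes.

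By the position of the libraries alone, 10 members had both GLUP libraries above both controls (21.3%, against 17.5% of all genes tested) and 29 had both below (61.7%, against 49.7%). In the other 8, MCM2, MCM4, CDC45, RFC2, RPA2, POLA2, RRM2 and E2F1, the groups overlapped. An unadjusted limma p under 0.05 was reached by 18 members (38.3%, against 31.7% of all genes). The median log2 fold change of the 47 members was -0.44, which is -0.09 relative to all genes, and members ran from -2.15 to 2.57. The list as a whole thus lay at the level of the middle gene, with members spread on both sides of it. The plot of changes shows the spread within each role.

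**Figure D1:**
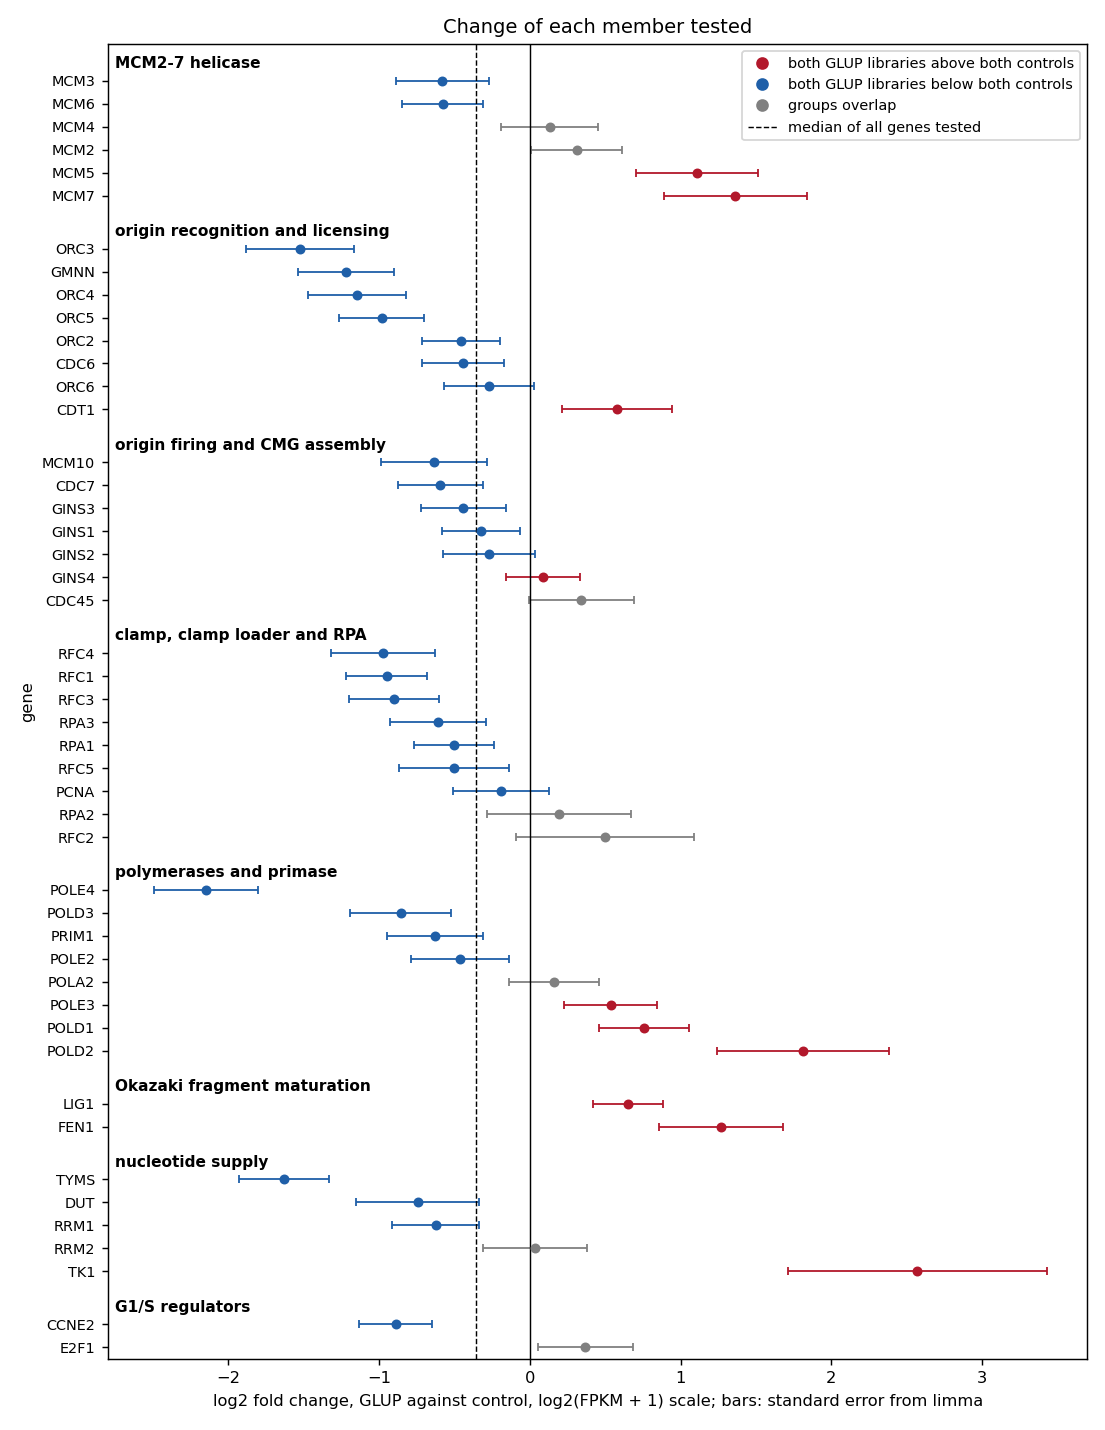
Log2 fold change of GLUP against control (x axis, log2(FPKM + 1) scale) for each of the 47 members tested (y axis, grouped by role), with standard errors from limma as bars and colours for groups that do or do not overlap. The members run from POLE4 at -2.15 to TK1 at 2.57 around the dashed median of all genes at -0.36, and 7 of 8 origin recognition and licensing genes lie on the left with both GLUP libraries below both controls, as do 49.7% of all genes.

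The MCM2-7 genes encode the subunits of one ring, which holds each subunit once. MCM7 was at 18.5 and 7.58 FPKM in controls and at 36.6 and 28.4 FPKM with GLUP. MCM5 was at 6.16 and 2.69 FPKM in controls and at 11.1 and 9.11 FPKM with GLUP. Both were thus higher in both GLUP libraries, and control replicate 2 was the lowest library for each. The log2 fold change was 1.36 (SE 0.47, adjusted p = 0.128 from limma) for MCM7 and 1.11 (SE 0.40, adjusted p = 0.136 from limma) for MCM5. Without control replicate 2 these were 0.77 and 0.63, and without control replicate 1 they were 1.95 and 1.58. MCM7 overlaps AP4M1 on the opposite strand, which was at 0.726 to 2.36 FPKM.

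The other ring subunits went elsewhere. MCM3 was at 20.7 and 22.6 FPKM in controls and at 15.1 and 13.3 FPKM with GLUP, and MCM6 was at 5.55 and 5.11 FPKM against 3.32 and 3.15 FPKM. Both lay below both controls, at log2 fold changes of -0.58 each, although MCM6 stood at 0.01 once the trend along GC content described below was removed. MCM2 and MCM4 overlapped between the groups. MCM2 was the lowest of the 6 in every library (1.51 to 2.92 FPKM), and the highest was MCM3 in both control libraries and MCM7 in both GLUP libraries. FPKM is scaled by gene length but not by GC content, so these levels can be set side by side only roughly. The transcripts of MCM2, MCM3 and MCM7 have GC contents of 57.4%, 51.6% and 57.6%. The highest subunit exceeded the lowest by 13.7 and 14.4 times in controls and by 23.9 and 9.72 times with GLUP.

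Of the origin recognition and licensing genes, 7 of the 8 tested lay lower in both GLUP libraries, as did 49.7% of all genes. ORC3, a core subunit of the complex, was at 19.1 and 25.1 FPKM in controls and at 5.52 and 8.71 FPKM with GLUP. ORC4, another core subunit, was at 6.60 and 8.06 FPKM against 2.09 and 3.54 FPKM. Both GLUP libraries lay below both controls for each gene, with log2 fold changes of -1.52 (SE 0.36, adjusted p = 0.10 from limma) and -1.15 (SE 0.32, adjusted p = 0.105 from limma), and of -0.79 and -0.36 with the GC trend removed. ORC4 overlaps ACVR2A on the opposite strand, which was at 1.68 and 6.69 FPKM in controls and at 0.902 and 1.04 FPKM with GLUP. ORC5 followed at -0.98 (5.14 and 3.71 FPKM against 1.53 and 1.92 FPKM), and at -0.31 with the GC trend removed. ORC2 (-0.46) and ORC6 (-0.27) were also lower, but ORC6 lay above 0 with libraries centred on their medians (0.07) or quantile-normalized (0.11), and both lay above 0 with the GC trend removed (0.26 and 0.05).

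ORC1, the subunit that is known to be made and destroyed within each cycle, was under the limit of 1 FPKM, with 0.945 and 0.394 FPKM in controls and 1.11 and 0.849 FPKM with GLUP. The summed level of the 6 ORC genes was 47.8 and 50.7 FPKM in controls and 22 and 26.3 FPKM with GLUP. This sum was not corrected for the GC trend, and the abundant genes weigh most in it. The same sum for MCM2-7 went the other way, with 62.4 and 46.7 FPKM in controls and 77.7 and 65.4 FPKM with GLUP. ORC3 was the highest ORC gene in both controls and ORC6 in both GLUP libraries.

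GMNN was the most abundant licensing gene and, by its mean over the libraries, the second most abundant member. It was at 159 and 182 FPKM in controls and at 69.5 and 75.8 FPKM with GLUP. The groups were far apart and each was tight, with a log2 fold change of -1.22 (SE 0.32, adjusted p = 0.101 from limma), which ran from -1.31 to -1.12 with 1 library left out. With the GC trend removed it was -0.65. CDT1, the loading factor that geminin binds, was the only licensing gene tested that was higher in both GLUP libraries, by a small margin. It was at 3.77 and 1.74 FPKM in controls and at 5.01 and 3.85 FPKM with GLUP (log2 fold change 0.58, adjusted p = 0.294 from limma), and at -0.00052 with the GC trend removed. CDC6 was lower in both GLUP libraries at -0.44, and at 0.05 with that trend removed.

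The genes that fire origins and build the active helicase stayed within 2-fold. Their log2 fold changes lay between -0.64 (MCM10) and 0.34 (CDC45), and none of the 7 had an unadjusted limma p under 0.05. GINS2, the most abundant of them and a subunit of the GINS complex, was at 25.2 and 25.5 FPKM in controls and at 19.9 and 21.8 FPKM with GLUP. Its difference of -0.27 (SE 0.31) was within the error of the fit, and its sign turned when libraries were centred on their medians (0.07) or quantile-normalized (0.10). CDC7, the kinase that fires origins, was at -0.60, and GINS1 and GINS3 were at -0.33 and -0.44, all with both GLUP libraries below both controls, and all above 0 with the GC trend removed (0.15, 0.40 and 0.13), GINS1 also after median centring (0.02). In this role 5 of the 7 had both GLUP libraries lower, against 49.7% of all genes. GINS4 had both narrowly higher, at 2.11 and 1.99 FPKM in controls and 2.24 and 2.25 FPKM with GLUP. Its log2 fold change was 0.09, and 0.39 with the GC trend removed.

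PCNA, the sliding clamp, hardly differed. It was at 74.3 and 64.6 FPKM in controls and at 59.1 and 62.2 FPKM with GLUP, a log2 fold change of -0.19 (SE 0.32, adjusted p = 0.688 from limma) that was above 0 after median centring (0.15), quantile normalization (0.05) and removal of the GC trend (0.28). Among the genes of its loader, the RFC complex, 4 of 5 were lower in both GLUP libraries, against the same 49.7% of all genes. RFC4 was at 45.4 and 65.3 FPKM against 27.5 and 26.9 FPKM, RFC1 at 3.80 and 4.92 FPKM against 1.74 and 1.78 FPKM, and RFC3 at 11.6 and 9.14 FPKM against 5.01 and 5.09 FPKM. These 3 stood at log2 fold changes of -0.98, -0.95 and -0.90, and at -0.52, -0.30 and -0.13 with the GC trend removed. RFC5 was lower by less (-0.50, and 0.01 with that trend removed), and RFC2 overlapped between the groups because control replicate 1, at 80.1 FPKM, was the highest library and control replicate 2, at 23.9 FPKM, the lowest. RFC4 overlaps EIF4A2 on the opposite strand, which was also lower with GLUP (27.4 and 28.2 FPKM in controls, 16.3 and 13.5 FPKM with GLUP).

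RPA3, the smallest subunit of the single-strand binding complex RPA, was the most abundant member by its mean. It was at 211 and 258 FPKM in controls and at 154 and 151 FPKM with GLUP, a log2 fold change of -0.61 (SE 0.32, adjusted p = 0.228 from limma), or -0.18 with the GC trend removed. RPA3 overlaps UMAD1 on the opposite strand, which was at 3.04 to 5.82 FPKM. RPA1 lay at -0.51, also with both GLUP libraries lower, and RPA2 overlapped between the groups. RPA1 was far below the other subunits in every library, at 2.58 to 4.53 FPKM.

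**Figure D2:**
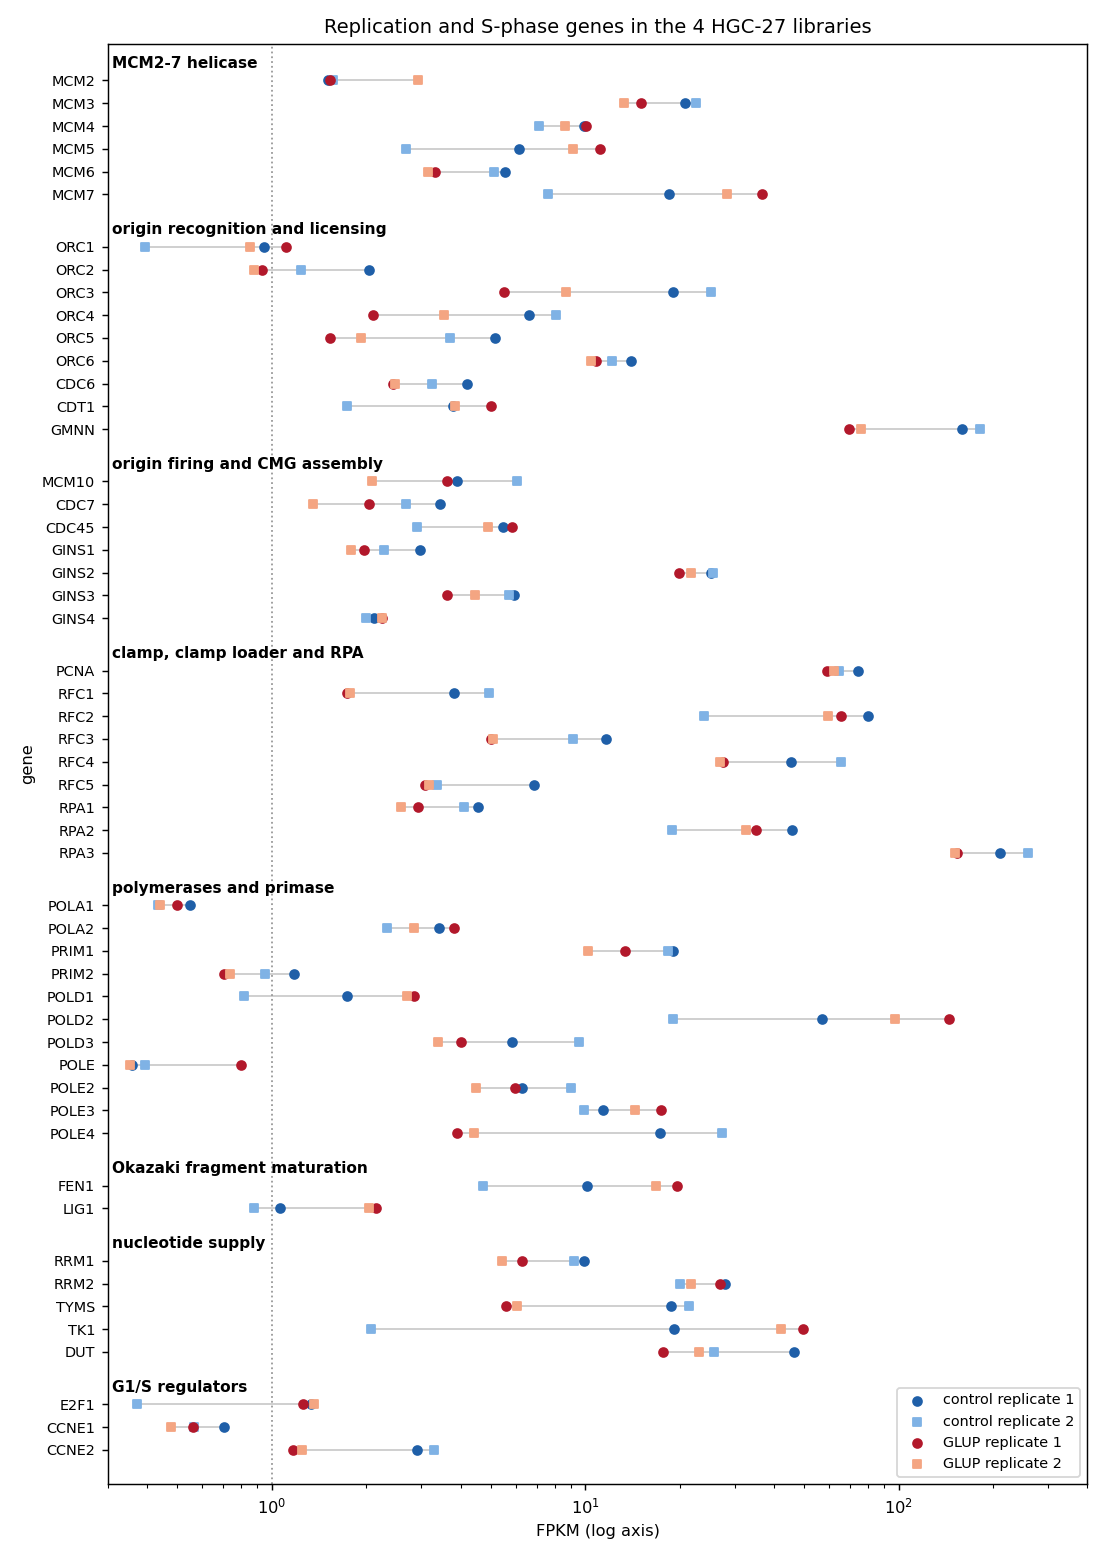
FPKM (x axis, log scale) of all 52 members (y axis, grouped by role) in each of the 4 libraries, with circles for replicate 1 and squares for replicate 2, blue for control and red for GLUP, and the dotted line at the 1 FPKM limit. RPA3 and GMNN have the highest means over the 4 libraries, and the 2 GLUP libraries lie close together while control replicate 2 is often the library that stands apart, as for TK1 at 2.07 FPKM.

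The polymerase genes held the member with the lowest fold change and the second highest. POLE4, a small histone-fold subunit of polymerase epsilon, lies on chromosome 2 of GRCh37 from 75185770 to 75197255, with no annotated gene overlapping it. It was at 17.4 and 27.3 FPKM in controls and at 3.88 and 4.42 FPKM with GLUP, a ratio of group means of 0.186. Both GLUP libraries lay well under the lower control, and the log2 fold change of -2.15 (SE 0.35, adjusted p = 0.10 from limma) ran from -2.46 to -1.84 with 1 library left out and was -1.81 with the GC trend removed. POLE3, which pairs with POLE4 in the same enzyme, was at 11.4 and 9.92 FPKM in controls and at 17.5 and 14.4 FPKM with GLUP, higher in both GLUP libraries (log2 fold change 0.54, adjusted p = 0.266 from limma, and 0.95 with the GC trend removed). POLE2 was lower at -0.46, and at 0.10 with the GC trend removed, and POLE, the catalytic subunit, was under the limit in every library (0.352 to 0.797 FPKM).

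POLD2, an accessory subunit of polymerase delta, spans 44154230 to 44163957 on chromosome 7. The gene was at 56.8 and 19.0 FPKM in controls and at 145 and 97.1 FPKM with GLUP. Both GLUP libraries were higher than both controls, and the controls differed from each other by a larger factor than control replicate 1 did from either GLUP library. The log2 fold change of 1.81 (SE 0.57, adjusted p = 0.114 from limma) was 1.05 without control replicate 2, 2.58 without control replicate 1 and 1.38 with the GC trend removed. POLD1, the catalytic subunit of polymerase delta, was at 1.74 and 0.816 FPKM in controls and at 2.83 and 2.71 FPKM with GLUP, a log2 fold change of 0.76 that was 0.19 with that trend removed. POLD3 went the other way, at 5.83 and 9.55 FPKM against 4.0 and 3.39 FPKM (log2 fold change -0.86, and -0.24 with the GC trend removed). The subunits of delta thus stood on both sides, as did those of epsilon.

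PRIM1, the small primase subunit, was lower with GLUP (19.0 and 18.4 FPKM against 13.4 and 10.2 FPKM, log2 fold change -0.63, and -0.06 with the GC trend removed). It overlaps NACA, an abundant gene (2332 to 3316 FPKM) on the same strand, so reads may have been shared. A further protein-coding gene without a symbol also overlaps PRIM1 on the same strand. That gene was at 0 and 20.4 FPKM in controls and at 0 and 8.79 FPKM with GLUP. POLA2 overlapped between the groups. POLA1 and PRIM2, under the limit of 1 FPKM, lay at 0.433 to 0.548 FPKM and at 0.702 to 1.17 FPKM.

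Both members listed for Okazaki fragment maturation were higher in both GLUP libraries than in both controls, as were 17.5% of all genes tested. FEN1, the nuclease that trims the flap of each fragment, lies on chromosome 11 from 61560383 to 61564710 within the span of FADS2, which was at most 0.71 FPKM. It was at 10.1 and 4.72 FPKM in controls and at 19.6 and 16.9 FPKM with GLUP, with a log2 fold change of 1.27 (SE 0.41, adjusted p = 0.118 from limma), of 0.79 without control replicate 2 and of 1.26 with the GC trend removed. LIG1, the ligase that seals the fragments, was at 1.06 and 0.879 FPKM in controls and at 2.15 and 2.04 FPKM with GLUP. Its 2 groups were each tight and its log2 fold change was 0.65 (SE 0.23, adjusted p = 0.132 from limma), or 0.33 with the GC trend removed.

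The genes of nucleotide supply held the highest fold change of the list and one of the lowest. TK1, thymidine kinase, which makes thymidine monophosphate by salvage, spans 76170172 to 76183314 on chromosome 17. The gene was at 19.2 and 2.07 FPKM in controls and at 49.6 and 42.3 FPKM with GLUP. The GLUP libraries were both higher, but the controls differed from each other by a larger factor than control replicate 1 did from either of them. The log2 fold change of 2.57 (SE 0.86, adjusted p = 0.122 from limma) was 3.93 without control replicate 1, 1.21 without control replicate 2 and 2.02 with the GC trend removed.

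TYMS, thymidylate synthase, makes the same product by the other route, from deoxyuridine monophosphate. It lies on chromosome 18 from 657653 to 673578 and was at 18.8 and 21.4 FPKM in controls and at 5.58 and 6.03 FPKM with GLUP. All 4 libraries sat tightly in their groups, and the controls were higher than the GLUP libraries by 3.46 times in the means. The log2 fold change of -1.63 (SE 0.30, adjusted p = 0.10 from limma) ran from -1.72 to -1.54 with 1 library left out and was -1.39 with the GC trend removed. TYMS overlaps ENOSF1 and TYMSOS on the opposite strand, and no source used here states whether reads were counted by strand. TYMSOS was at 12.1 and 10.3 FPKM in controls and at 14.0 and 14.7 FPKM with GLUP.

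RRM1 and RRM2 form ribonucleotide reductase, the enzyme that makes deoxyribonucleotides. RRM1 was lower with GLUP (9.93 and 9.23 FPKM against 6.30 and 5.43 FPKM, log2 fold change -0.63, and -0.05 with the GC trend removed), whereas RRM2 overlapped between the groups (27.8 and 20.1 FPKM against 26.9 and 21.8 FPKM). DUT, which removes dUTP and feeds TYMS, had both GLUP libraries below both controls, with 46.4 and 25.7 FPKM against 17.7 and 23.1 FPKM (log2 fold change -0.75, adjusted p = 0.246 from limma), and lay at -0.21 with the GC trend removed. GLUP replicate 2 was close to control replicate 2 for DUT, and leaving out control replicate 1 or control replicate 2 gave -0.33 or -1.16.

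The regulators of the G1 to S passage were scarce. CCNE2, a cyclin partner of CDK2, was at 2.91 and 3.29 FPKM in controls and at 1.17 and 1.25 FPKM with GLUP. The groups were apart, with a log2 fold change of -0.89 (SE 0.24, adjusted p = 0.103 from limma), which was -0.08 with the GC trend removed. CCNE2 overlaps NDUFAF6 and INTS8 on the opposite strand, and NDUFAF6 was at 3.35 and 3.23 FPKM in controls and at 0.864 and 0.434 FPKM with GLUP. CCNE1 was under the limit (0.477 to 0.705 FPKM). E2F1 was at 1.33, 1.26 and 1.36 FPKM in control replicate 1 and the GLUP libraries, and at 0.372 FPKM in control replicate 2 alone.

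Ratios between partner genes do not depend on how a library is scaled, and 7 pairs, chosen after their values were seen, are given as a description. The ratio of POLE4 to POLE3 was 1.52 and 2.75 in the control libraries and 0.222 and 0.307 in the GLUP libraries, so the more abundant partner was POLE4 in controls and POLE3 with GLUP. These transcripts have like GC contents, 47.3% and 46.1%. The ratio of GMNN to CDT1 was 42.2 and 105 in controls and 13.9 and 19.7 with GLUP, for transcripts of 43.6% and 64.3% GC.

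The ratio of TYMS to TK1 was 0.978 and 10.3 in controls and 0.112 and 0.143 with GLUP. TYMS was close to TK1 in control replicate 1 and far above it in control replicate 2, and TK1 was the higher of the pair in both GLUP libraries. The ratio of RRM2 to RRM1 was 2.80 and 2.17 against 4.27 and 4.01, at GC contents of 45.8% and 43.5%. The 3 remaining ratios (MCM7 to MCM3, POLD2 to POLD3 and RFC2 to RFC4) were also higher in both GLUP libraries, with control replicate 2 the lowest library in each. Their GC contents were 57.6% and 51.6%, 58.7% and 42.6%, and 52.6% and 45.4%, and those of TYMS and TK1 were 48.9% and 62.8%. In each of these pairs the ratio moved toward the partner richer in GC, and a ratio is not free of the trend along GC content described below. A ratio shows that 2 genes changed unequally, not which of them did.

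**Figure D3:**
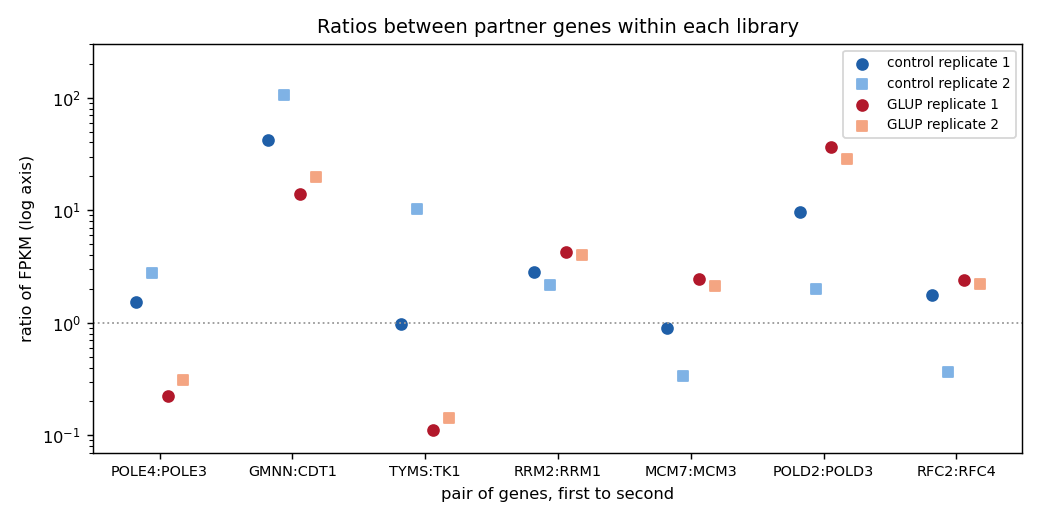
Ratio of FPKM (y axis, log scale) between 7 pairs of partner genes (x axis) within each of the 4 libraries. POLE4 to POLE3, GMNN to CDT1 and TYMS to TK1 are lower in both GLUP libraries than in both controls (for POLE4 to POLE3, 0.222 and 0.307 against 1.52 and 2.75), and the other 4 are higher.

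The direction of a member followed the GC content of its longest transcript. All genes tested were cut into 5 equal bins of GC content. In the highest bin (55.3% to 73.2%), all 9 members (MCM2, MCM5, MCM7, CDT1, POLD1, POLD2, LIG1, TK1 and E2F1) had a log2 fold change above 0, as had 73.5% of all genes there. In the next bin, 4 of 5 members were above 0, against 50.5% of the genes. In the middle bin (44.1% to 49.0%) 5 of 16 members were above 0, against 23.9% of the genes, and in the lower bins 0 of 10 and 0 of 7 members, against 11.9% and 6.80%. ORC3, ORC4, GMNN, RFC1, RFC3 and CCNE2 belong to these lower bins.

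Over the 47 members the Spearman rho between log2 fold change and GC content was 0.75, against 0.58 over all genes, where points share the same 4 libraries and no p is given. The controls differed by GC content too, since control replicate 2 minus control replicate 1 gave a rho of -0.48 over the members. Each treatment had its own libraries, so a difference between libraries and one between treatments cannot be told apart.

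When the GC trend was removed from each library by a smoothed curve over all genes, 25 members were above 0 and 22 below, and 13 of 47 had changed sign, with a median of 0.01 over the members. The curve was that of all genes and did not level the members, whose rho with GC content was still 0.41. Beyond 2-fold then stood 5 members, TK1 (2.02), POLD2 (1.38) and FEN1 (1.26) above and POLE4 (-1.81) and TYMS (-1.39) below. MCM7 (0.98), POLE3 (0.95) and MCM5 (0.76) came next above. GMNN (-0.65), ORC3 (-0.79) and ORC4 (-0.36), which had been among the 5 lowest, kept their sign and lay within 2-fold.

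Promoters were read for what the members share beyond the list. RefSeq promoter sequences (GRCh38.p14, from 250 bases before to 50 bases after the start of each gene) matched 45 of the 52 members by symbol, and CCNE2, GINS4, MCM4, MCM5, POLD3, RPA2 and RPA3 had no entry. An E2F-type motif, searched on both strands in the spellings TTTCCCGC, TTTCGCGC, TTTGCCGC and TTTGGCGC, was present in 20 of the 45 (44.4%), in 3.33% of all 27305 promoters and in 6.52% of the 5548 promoters of genes tested here. Spellings on opposite strands can overlap, and a promoter was counted once. The motif stood on both sides of the comparison, in 6 of 14 promoters of members with a log2 fold change above 0 and in 12 of 26 of those below. CCAAT, searched the same way and free to share end letters with a match of the above, was in 53.3% of the member promoters, in 35.7% of all and in 39.5% of those of genes tested. It stood in 5 of 14 promoters of members above 0 (35.7%) and in 16 of 26 of those below (61.5%), a difference that was not tested.

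The stretches below show the matches of 7 members that differ in direction, printed 5′ to 3′ on the strand of the gene, with every match in capitals and 16 bases on each side where the stretch does not reach the start of the gene. POLE4 (chr2:74958596-74958635, + strand), TYMS (chr18:657598-657637, + strand) and ORC3 (chr6:87590107-87590134, + strand) were lower in both GLUP libraries. MCM7 (chr7:100101561-100101600 and, for a second match next to the start, chr7:100101398-100101422, - strand), CDT1 (chr16:88803738-88803777, + strand) and LIG1 (chr19:48170435-48170474, - strand) were higher in both, and E2F1 (chr20:33686386-33686421, - strand), the gene of the factor itself, whose stretch holds 2 matches, overlapped.
POLE4: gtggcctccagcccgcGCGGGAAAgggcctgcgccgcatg
TYMS: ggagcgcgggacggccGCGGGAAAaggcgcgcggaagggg
ORC3: gcagccgcgagggcgcGCGGGAAAtccc
MCM7: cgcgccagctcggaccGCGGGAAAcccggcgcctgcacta
MCM7, second match: cacgtggggggcgacgTTTCGCGCc
CDT1: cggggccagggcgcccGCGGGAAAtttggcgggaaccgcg
LIG1: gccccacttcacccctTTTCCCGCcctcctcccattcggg
E2F1: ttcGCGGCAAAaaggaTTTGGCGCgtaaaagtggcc
The same 8 letters, TTTCCCGC or their complement GCGGGAAA, stand in 6 of these 7 genes, lower and higher genes alike. These 7 were picked from members with a match, so the count does not describe the list. MCM6, POLA1, POLA2 and POLE, not printed, match by other spellings. A match of letters does not show that a factor was bound.

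The rest of the pathway was looked at in a further list of 64 genes (fork accessories, chromatin assembly, nucleotide metabolism and the E2F, RB and cyclin factors), of which 44 were tested. None was called, 1 was higher (2.27%, against 4.67% of all genes) and 6 were lower (13.6%, against 14.5%) by the same rule of a 2-fold difference and an unadjusted limma p, 9 had both GLUP libraries higher (20.5%, against 17.5%) and 22 both lower (50%, against 49.7%), and the median log2 fold change was -0.27. The highest fold change was that of DNMT1, the methyltransferase that copies DNA methylation behind the fork, at 42.7 and 33.5 FPKM in controls and at 162 and 134 FPKM with GLUP (log2 fold change 1.93, adjusted p = 0.10 from limma), and at 1.70 with the GC trend removed. CDK4 (1.14) and DCTPP1 (1.13) came next among the higher genes, but stood at 0.30 and 0.17 without control replicate 2.

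ASF1A, a histone chaperone of the fork, was at 74.2 and 218 FPKM in controls and at 18.9 and 20 FPKM with GLUP (log2 fold change -2.65, adjusted p = 0.10 from limma, -1.80 with the GC trend removed). RNASEH2B was at -1.28, and at -0.55 with that trend removed. Genes of like name went the other way, RNASEH2A (1.06), RNASEH2C (0.71) and ASF1B (0.86). They had both GLUP libraries above both controls, as had 17.5% of all genes tested. With the GC trend removed they were at 0.65, 0.41 and 0.55, and they were picked after their values were seen. Of 6 further markers of proliferation, MKI67, CCNB1, CDK1, AURKA and BUB1 had both GLUP libraries below both controls. The same held for 49.7% of all genes tested. PLK1 had both above, as had 17.5% of all genes tested, and was at 0.36 FPKM in control replicate 2. With the GC trend removed, the log2 fold changes were -0.21 (MKI67), -0.02 (CCNB1), -0.38 (CDK1), -0.14 (AURKA), -0.71 (BUB1) and 1.59 (PLK1).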

How the data were processed

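RNA of HGC-27 cells was sequenced in 4 libraries, 2 control and 2 GLUP. The authors deposited FPKM values, 1 row per gene and 1 column per library. The labels' processing notes name HISAT2, Cufflinks and RSEM without version or role, and the build GRCh38.p10, whereas the row identifiers have the form GENCODE uses for annotation lifted to GRCh37. Gene names, positions, overlaps and GC content were taken from that lifted annotation (99.55% of IDs named), so positions are on GRCh37 and the build that was aligned to is not settled. The values used were FPKM and not counts, so depth is unknown and no counting error is given.

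Rows of one gene were summed. Genes that averaged 1 FPKM or more were fitted on log2(FPKM + 1) with limma 3.58.1 in R 4.3.3 (mean-variance trend, no covariates) and adjusted by Benjamini-Hochberg over 7588 genes. Fold changes on this scale are understated for low genes. GC correction subtracted a lowess curve (span 0.3) of each library's deviation along GC content. The fit was tested on simulated data. The members, lists, alternatives and tests were chosen with earlier results of these data known. Values per library are given for members over 2-fold with groups apart, the most abundant of each role and the 5 highest and 5 lowest, and for further members, chosen after their values were seen, where a role or pair called for them. The smallest two-sided p that permuting 2 against 2 libraries allows is 0.333, so no such test was run. One further gene that the naming rule for the other pathway genes selects is not reported here.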

Additional observations from a re-analysis of the deposited data

How the results depend on the processing

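The count of members with an adjusted limma p under 0.05 and a fold over 2 was 0 (18 at an unadjusted p under 0.05), and 0 under every alternative that kept all 4 libraries. With 1 library left out it ran from 0 to 15, with 15 without control replicate 1 and 8 without control replicate 2, where the lone control is assumed to vary as the close GLUP libraries do and 2710 and 1020 of all genes are called. The counts of higher and lower members over 2-fold with an unadjusted p under 0.05, 5 and 5 as reported, were 3 and 5 with all genes above 0, 3 and 2 with GC correction, whether or not a replicate block was added, 6 and 3 with median centring, 5 and 3 with quantile normalization, and 7 and 10 with a pseudocount of 0.1. With 1 library left out they ran from 1 to 7 and from 2 to 8, being 7 and 8 without control replicate 1, 2 and 8 without control replicate 2, 1 and 2 without GLUP replicate 1, and 2 and 4 without GLUP replicate 2. The relative median, -0.09, was -0.28 with all genes above 0, 0.0236 with quantile normalization, 0.00965 with GC correction and with that and the replicate block, and between -0.122 and 0.0625 with 1 library left out. The cause of these shifts was not tested. GINS2, at -0.27, was at 0.072 with median centring and 0.101 with quantile normalization. No other member given by the naming rule changed sign under the alternatives. Nothing ties equal replicate numbers to a shared day, and the deviations of the libraries numbered 1 correlated at 0.13. The replicate block alone gave 0 called members, 5 higher and 5 lower by the counts above, a relative median of -0.09 and no change of sign.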
